A study of Mus musculus with 16 samples.

Results

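The GFP- cells of cultured neonatal mouse cochleas were examined for how their transcripts differed with age, from P0 (the day of birth) to P5 (postnatal day 5). Members were chosen by sample title, and 8 of the 16 libraries of the series carried the GFP- label: 4 of P0 and 4 of P5 cochleas, each age with 2 DMSO and 2 DAPT libraries. All 8 came from the strain B6;FVB-Tg(Lfng-EGFP)HM340Gsat/Mmucd, in which a bacterial artificial chromosome places GFP under Lfng regulatory sequence. The explants spent 24 hours in medium with EGF and FGF2, either with 10 µM DAPT, an inhibitor of the gamma-secretase that cleaves Notch receptors, or with 0.04% DMSO as vehicle. DAPT and DMSO were treated as a block, and age was the comparison.

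The GFP- fraction is a mixture. GFP marks nearly every supporting cell type beside the hair cells, and cells of low fluorescence, which are likely to include inner pillar and inner hair cells, were not collected. The fraction could therefore hold what had no GFP in the dissected tissue: epithelium outside the labelled cells, hair cells without GFP, mesenchyme, nerve, vessels and immune cells. The study's dissections were not alike at the 2 ages. At P0 the duct was peeled from the modiolus, the bony core that houses the auditory neurons, and the lateral wall was taken off; at P5 the duct was cut from the modiolus, the lateral wall was removed in part, and the papain digestion was longer. Age, dissection and digestion cannot be told apart here, and in bulk RNA fewer cells of a type and less RNA per cell cannot be told apart either. Library totals ran from 34869184 to 45465324 counts in genes.

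In the first postnatal days the mouse is still deaf. Cells of its cochlea leave the cell cycle, the tectorial membrane and the matrix of the surrounding connective tissue are laid down, the capsule of the cochlea ossifies, and the channels and gap junctions that carry potassium back to the endolymph appear. Thyroid hormone, activated locally by the deiodinase Dio2, is needed for these steps to occur on time.

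The GFP- label was set against supporting cell markers in the DAPT libraries. Cells were sorted on GFP under Lfng regulatory sequence, so Lfng is no independent check of the sort. Lfng itself stood between 5.43 and 14.6 CPM (counts per 1000000 counts of the scaled library, here scaled over the 8 DAPT libraries) in the 4 DAPT GFP- libraries and between 183.4 and 333.5 CPM in the 4 DAPT GFP+ libraries. Prox1, a transcription factor of supporting cells, stood between 1.67 and 5.01 CPM against 243.3 to 610.7 CPM. Neither gene overlapped between the fractions. All other CPM are on the scaling of the 8 GFP- libraries, unless GFP+ is named.

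The library labelled P0 DMSO GFP- 2 stood apart from the other P0 libraries. Over 18018 genes its log2(CPM + 1) correlated with that of P0 DMSO 1 at r = 0.9564 and with P0 DAPT 1 and 2 at 0.957 and 0.9646, but with the 4 P5 libraries at 0.9878 to 0.9916. P5 DMSO 1 and 2, a pair of replicates, correlated at 0.9865. On the first principal component, which held 66.77% of the variance, the other P0 libraries scored from -42.4 to -31.7, the P5 libraries from 15.99 to 29.04, and this library 27.22. Its reads with several alignments made up 6.79% of records, against 8.30 to 8.73% in the other P0 and 6.78 to 7.71% in the P5 libraries.

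**Figure D1:**
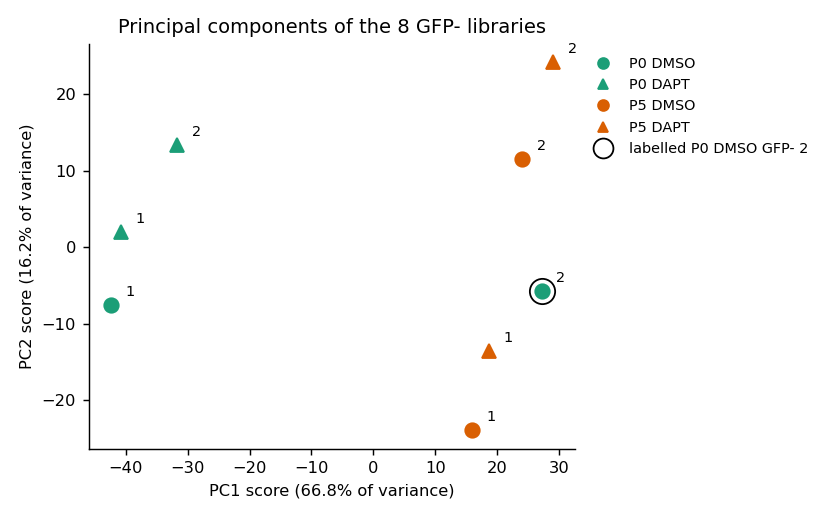
Scores of the 8 GFP- libraries on the first and second principal components of log2 expression. Colour gives the labelled age, shape the treatment and the numeral the replicate; the ringed library labelled P0 DMSO GFP- 2, at 27.22 on the first component, lies among the P5 libraries (15.99 to 29.04).

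The DAPT libraries gave a yardstick that no DMSO library had entered. With the 4 DAPT libraries alone, 62 of 17528 genes (0.354%) changed more than 2-fold with an adjusted p below 0.01, the limits used throughout (51 higher and 11 lower at P5; edgeR quasi-likelihood test). At the same limits DESeq2 called 1233 genes on these 4 libraries (815 higher and 418 lower at P5), in a fit chosen after seeing the data. The 62 edgeR genes were placed on a scale where 0 is the P0 DAPT mean and 1 the P5 DAPT mean of log2(CPM + 1). Their median position was 0.02 in P0 DMSO 1, 0.99 in P5 DMSO 1 and 0.98 in P5 DMSO 2. In the library labelled P0 DMSO GFP- 2 the median was 1.03, and all 62 genes lay past the midpoint (lowest 0.61). For treatment, 1 gene picked after its values were seen is given. Heyl, a direct Notch target, stood at 79.4 CPM in this library and at 98.9, 68.9 and 102 CPM in the other DMSO libraries. It stood between 7.57 and 20.0 CPM in the 4 DAPT libraries. Over all genes tested, this library correlated at 0.9916 and 0.9894 with P5 DMSO 1 and 2. With P5 DAPT 1 and 2 it correlated at 0.9905 and 0.9878. The GFP+ library with the same age, treatment and number correlated at 0.9823 with P0 DMSO GFP+ 1 and at 0.9387 to 0.9429 with the P5 DMSO GFP+ libraries. Both P0 DMSO GFP+ libraries also held more reads with several alignments (8.56 and 7.63% of records) than the other GFP+ libraries (3.95 to 4.45%). The label was kept, the comparison of ages was made with and without this library, and why it lay near the P5 libraries was not tested.

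**Figure D2:**
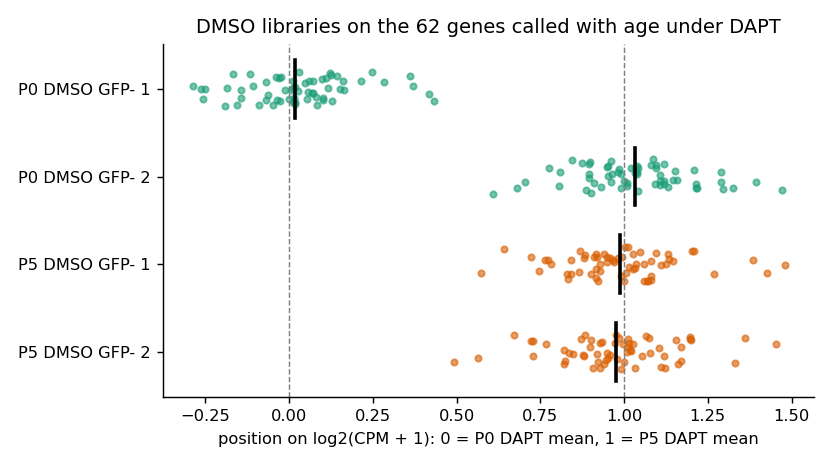
Position of each DMSO GFP- library on the 62 genes called between P5 and P0 in the DAPT GFP- libraries, with 0 the P0 DAPT mean and 1 the P5 DAPT mean of log2(CPM + 1); each point is a gene and each bar a median. The medians were 0.02 for P0 DMSO 1, 1.03 for the library labelled P0 DMSO GFP- 2, and 0.99 and 0.98 for the P5 DMSO libraries.

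With all 8 libraries, no gene passed the limits between P5 and P0. The edgeR quasi-likelihood test called 0 of 18018 genes (0.0%), the smallest adjusted p was 0.246, and 3294 genes had an unadjusted p under 0.05. On the same 8 libraries DESeq2 called 148 genes, and limma voom with sample quality weights, which gave the library labelled P0 DMSO GFP- 2 a weight of 0.176, called 1649 (9.15%; 1144 higher at P5).

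Without that library, 1217 of 18519 genes passed (6.57%): 762 were higher at P5 (4.11%) and 455 lower (2.46%). The library was left out for its measured values, so these adjusted p-values describe 7 libraries and not the design as labelled. With all 8 libraries, 0 members passed in each of the 32 gene lists described below, so every rise or fall given for a list or gene holds for the 7 libraries. Each count of called list members is to be read beside the 4.11% and 2.46% of all genes. The P0 DMSO group then held a single library, which was taken to vary as the others do. Without P0 DMSO 1 as well, the count was 148, and without P0 DAPT 1 it was 377; the other libraries each left between 881 and 1066. In 88.1% of the 1217 genes the omitted library lay within or beyond the range of the P5 libraries (708 within, 364 beyond), in 143 it lay between the ages, and in 2 it lay in the P0 range. Those 2 genes, picked here after their values were seen, were Slc26a5 (prestin, the motor protein of outer hair cells) and Ildr2. Slc26a5 stood at 0.119 CPM in it, at 0 to 0.133 CPM in the other P0 libraries and at 0.771 to 2.46 CPM in the P5 libraries. Ildr2 stood at 11.2 CPM in it, at 4.54, 9.61 and 14.3 CPM in the other P0 libraries and at 34.9 to 42.9 CPM at P5.

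Mgp encodes matrix Gla protein, a secreted inhibitor of calcification (ENSMUSG00000030218; chromosome 6, 136820957 to 136824326, minus strand, protein-coding, NCBIM37). It stood at 170.4, 83.3 and 108 CPM in P0 DMSO 1, P0 DAPT 1 and P0 DAPT 2, at 2177, 2323, 1371 and 1548 CPM in P5 DMSO 1 and 2 and P5 DAPT 1 and 2, and at 2574 CPM in the library labelled P0 DMSO GFP- 2. The P5 range lay wholly above the first 3 P0 libraries, and the fourth exceeded every P5 library. Without the fourth, the log2 fold change was 3.85 (standard error, SE, 0.15, adjusted p = 7.8e-05); with all 8 libraries it was 2.32 and did not pass.

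Hhatl, a membrane protein related to the hedgehog acyltransferase and best known from striated muscle (ENSMUSG00000032523; chromosome 9, 121693134 to 121701625, minus strand, protein-coding), followed the same order of libraries. Its levels were 2.14, 3.03 and 5.33 CPM in P0 DMSO 1, P0 DAPT 1 and P0 DAPT 2, then 41.2, 80.9, 70.1 and 105.6 CPM in P5 DMSO 1 and 2 and P5 DAPT 1 and 2, and 77.5 CPM in the library labelled P0 DMSO GFP- 2. The log2 fold change was 4.56 without that library (SE 0.36, adjusted p = 0.00048) and 2.46 with it, which did not pass. Of the 17 skeletal muscle genes tested, Hhatl was the single one called (2 passed with the replicate block, a fit with the replicate number as a further term), and the other 27 listed members summed to 39.8 to 66.4 CPM in the 3 P0 libraries and 48.7 to 56.4 CPM at P5. Ckm, the muscle creatine kinase, was at 0 in 7 of the 8 libraries.

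**Figure D3:**
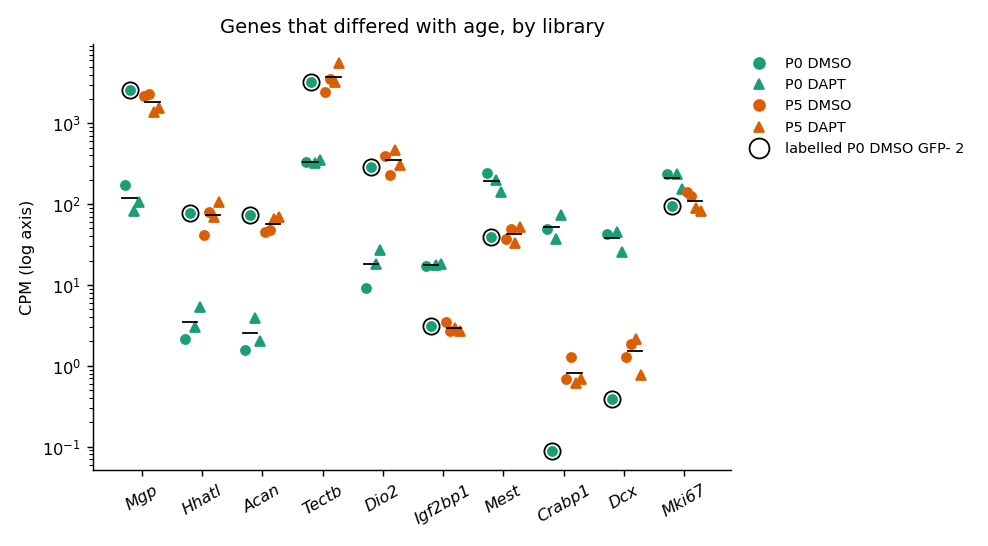
CPM on a log axis of 10 genes in the 8 GFP- libraries, coloured by labelled age and shaped by treatment, with bars at the mean of the 3 other P0 libraries and of the 4 P5 libraries. The ringed library labelled P0 DMSO GFP- 2 lies with or beyond the P5 libraries, as for Mgp (2574 CPM) and Crabp1 (0.0890 CPM).

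Bone genes were higher at P5. Of 17 tested, 12 were higher at P5 and none lower, with a median log2 fold change of 2.44 beside -0.025 over all genes tested. Genes of 4 secreted, phosphorylated matrix proteins of mineralised tissue, neighbours on chromosome 5 (NCBIM37), were among them: Dmp1 (104631632 to 104643121), Ibsp (104728190 to 104740488), Mepe (104754348 to 104767630) and Spp1 (104864137 to 104870069). Ibsp, bone sialoprotein, stood at 2.84, 3.07 and 0.698 CPM in P0 DMSO 1, P0 DAPT 1 and P0 DAPT 2, at 67.7, 126.6, 130.9 and 199.5 CPM in the P5 libraries and at 117.9 CPM in the library labelled P0 DMSO GFP- 2 (without it, log2 fold change 5.88, SE 0.59, adjusted p = 0.0011).

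Spp1, osteopontin, did not overlap between the ages either. It stood between 177 and 224 CPM in the 3 P0 libraries and between 777 and 1170 CPM at P5 (log2 fold change 2.31). Mepe had no read in those 3 P0 libraries and between 0.348 and 1.29 CPM at P5, which makes it at least 9.65-fold higher against a floor of 3 counts per library. Phex, an endopeptidase of osteocytes, rose from between 8.64 and 12.9 CPM to between 121.8 and 155.0 CPM (log2 fold change 3.68, SE 0.16, adjusted p = 7.8e-05).

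Runx2 and Sp7 direct osteoblast differentiation. Runx2 rose (log2 fold change 1.28, SE 0.21, adjusted p = 0.0061), and Sp7, at 3.31 to 13.2 CPM in 3 P0 libraries and 25.2 to 43.9 CPM at P5, did not pass (adjusted p = 0.015; with the replicate block, log2 fold change 2.27, adjusted p = 0.0032). Bglap and Bglap2, the osteocalcin genes, passed, from at most 0.140 CPM in those P0 libraries to at most 6.58 CPM at P5. They are near-identical copies, and their reads may be split uncertainly. The list summed to 453 to 549 CPM in the 3 P0 libraries, 2051 to 2324 CPM at P5 and 2240 CPM in the library labelled P0 DMSO GFP- 2. The study's dissection took off the otic capsule at both ages, and how much bone remained was not tested. With P0 DMSO 1 also left out, 2 members stayed called, and without P0 DAPT 1, 5; other omissions left 7 to 11.

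RUNX proteins bind a core whose letters are TGTGGT. In the 250 bases before RefSeq starts (GRCm38.p6), TGTGGT or its reverse complement ACCACA occurred for 5 of the 11 listed bone genes with an entry (45.5%), all 5 among the 9 called ones, and for 15.9% of all 27025 genes. A gene with several starts counts once if any start matches. The 11 bone genes had 17 starts and all genes 32851, so the bone genes had more starts per gene, and the shares are a description. The stretches before Bglap and Spp1 are given because both genes rose and both hold the letters, here in capitals. For Bglap this is chr3:88384467-88384716 on the minus strand and for Spp1 chr5:104434861-104435110 on the plus strand. A further Spp1 start had no match, and its stretch is not printed. A match describes the letters and shows no binding.
Bglap: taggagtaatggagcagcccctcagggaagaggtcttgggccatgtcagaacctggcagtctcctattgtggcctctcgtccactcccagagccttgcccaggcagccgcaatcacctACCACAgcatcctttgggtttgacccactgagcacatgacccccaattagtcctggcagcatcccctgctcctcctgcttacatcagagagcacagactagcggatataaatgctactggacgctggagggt
Spp1: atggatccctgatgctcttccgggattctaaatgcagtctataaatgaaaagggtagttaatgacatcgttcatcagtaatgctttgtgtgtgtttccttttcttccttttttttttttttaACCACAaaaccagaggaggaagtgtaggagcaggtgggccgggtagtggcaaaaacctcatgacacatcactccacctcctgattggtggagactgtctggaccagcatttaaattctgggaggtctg

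**Figure D4:**
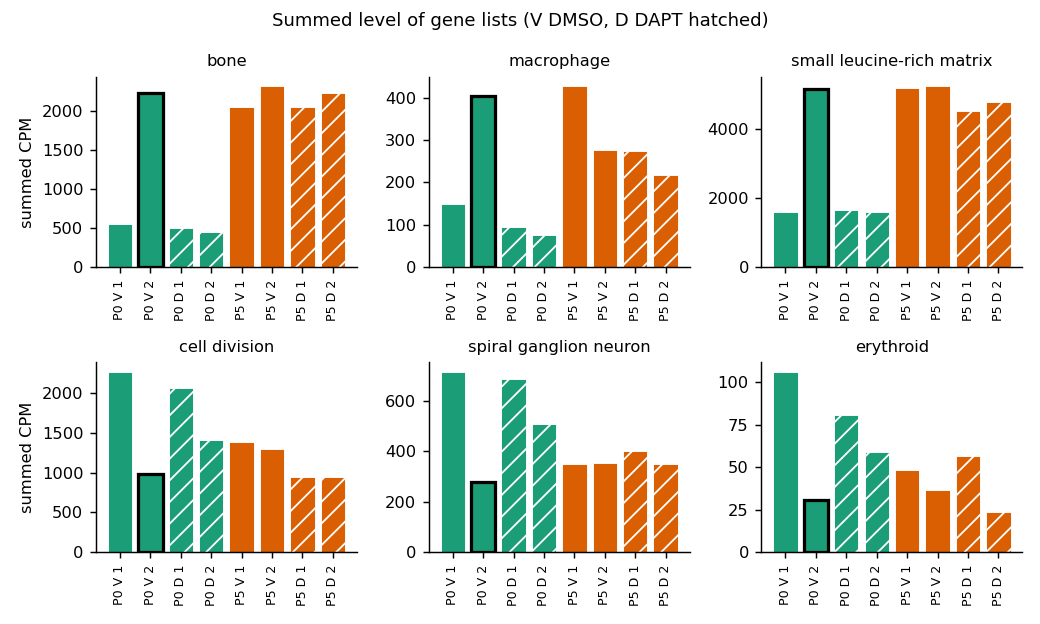
Summed CPM of the members of 6 gene lists in each of the 8 GFP- libraries (V, DMSO; D, DAPT, hatched; green, P0; orange, P5), with the library labelled P0 DMSO GFP- 2 outlined. Its bone sum of 2240 CPM lies among the P5 sums (2051 to 2324), above the 453 to 549 CPM of the other P0 libraries.

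Of the 11 small leucine-rich and mineral-binding matrix genes tested, 6 rose and none fell (median log2 fold change 1.46). Besides Mgp, they included osteomodulin (Omd, log2 fold change 3.72), chondroadherin (Chad, 3.5), fibromodulin (Fmod, 2.60), lumican (Lum, 1.48) and biglycan (Bgn, 1.11), proteins that bind collagen and set fibril spacing. Chad stood at 4.57, 2.85 and 8.07 CPM in P0 DMSO 1, P0 DAPT 1 and P0 DAPT 2, at 40.8 to 71.9 CPM at P5, and at 102.5 CPM in the library labelled P0 DMSO GFP- 2. Decorin (Dcn) had a log2 fold change of 0.80 and did not pass (adjusted p = 0.041). Without P0 DMSO 1 or without P0 DAPT 1, 3 of the 6 stayed called.

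Few collagen and elastic matrix genes passed. Of 30, 2 were higher, against 4.11% of all genes (Thbs2, log2 fold change 1.53; Fn1, fibronectin, 1.16) and Fbln5, an elastic fibre protein, was lower (-1.10, against 2.46%), with a median of 0.38. The 3 calls among 30 are no result about the list, and 5 members passed with the replicate block. Col1a2, at 3440 to 3578 CPM in the 3 P0 libraries and 4415 to 6082 CPM at P5, did not overlap between them but stayed short of the limits (log2 fold change 0.59, adjusted p = 0.036), and Col1a1 overlapped (0.45).

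Among 13 cartilage genes, Acan rose and Matn1 fell, against 4.11% and 2.46% of all genes. Acan, the large aggregating proteoglycan (ENSMUSG00000030607; chromosome 7, 86198369 to 86259985, plus strand), went from 1.58, 3.95 and 2.04 CPM in P0 DMSO 1, P0 DAPT 1 and P0 DAPT 2 to 45.6, 47.4, 65.0 and 68.5 CPM in the P5 libraries, with 73.6 CPM in the library labelled P0 DMSO GFP- 2. Its log2 fold change without that library was 4.61 (SE 0.24, adjusted p = 0.00012) and with it 2.33. Matn1, a matrilin of cartilage, fell by 2.06 on the log2 scale, and Col2a1, the main cartilage collagen, had a change of 0.82 that did not pass (adjusted p = 0.031). Of the list, 1 member stayed called without P0 DMSO 1 or without P0 DAPT 1, and 4 passed without P0 DAPT 2.

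Tectb, the beta-tectorin of the tectorial membrane, was the tectorial gene that passed by edgeR (of 7 tested). All 7 had an unadjusted p under 0.05 by edgeR, 5 had a positive log2 fold change (median 1.26), and DESeq2 called 5. Tectb stood at 328, 325 and 348 CPM in P0 DMSO 1, P0 DAPT 1 and P0 DAPT 2, at 2442, 3523, 3289 and 5520 CPM in the P5 libraries and at 3249 CPM in the library labelled P0 DMSO GFP- 2. The log2 fold change was 3.5 without that library (SE 0.27, adjusted p = 0.00042) and 2.22 with it. Tecta, its partner alpha-tectorin, had a log2 fold change of -1.09 that missed the limit (adjusted p = 0.010; -1.20, adjusted p = 0.0016, with the replicate block): 1162, 1070 and 1412 CPM in those P0 libraries and 441.1 to 786.5 CPM at P5.

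Genes that move potassium and water were mostly higher at P5: 7 of 13 passed upward and 1 downward (median 1.34). Kcnj16, an inward rectifier subunit, went from 1.09, 2.83 and 2.12 CPM in P0 DMSO 1, P0 DAPT 1 and P0 DAPT 2 to between 16.9 and 59.1 CPM at P5, with 25.9 CPM in the library labelled P0 DMSO GFP- 2 (without it, log2 fold change 4.18, SE 0.46, adjusted p = 0.0015). The water channel Aqp4 (4.05), the anion exchanger pendrin (Slc26a4, 2.56), the Na,K-ATPase subunit Atp1b1 (1.58) and the water channel Aqp1 (1.13) also rose. Gjb2 and Gjb6, the connexins of cochlear gap junctions, overlapped between the ages (log2 fold changes 0.89 and 0.54). With P0 DMSO 1 also left out, 1 of the 8 stayed called, and without P0 DAPT 1, 5. In the stria vascularis list, which marks the lateral wall that makes endolymph, 0 of 15 genes passed by edgeR, 11 had an unadjusted p under 0.05, 3 passed with the replicate block and DESeq2 called 5; its channel genes Kcne1 and Kcnq1 stood at no more than 5.27 CPM in any library.

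Dio2, the type 2 deiodinase that turns thyroxine into active hormone (ENSMUSG00000007682; chromosome 12, 91962994 to 91976878, minus strand), stood at 9.29, 18.02 and 26.8 CPM in P0 DMSO 1, P0 DAPT 1 and P0 DAPT 2. At P5 it stood at 393, 231, 474 and 302 CPM, and in the library labelled P0 DMSO GFP- 2 at 286 CPM. The ages did not overlap without that library (log2 fold change 4.47, SE 0.36, adjusted p = 0.0005; 2.59 with it). Of 11 thyroid and glucocorticoid response genes 4 rose and none fell, against 4.11% and 2.46% of all genes. Besides Dio2, these were the corepressor Hr (2.84), Klf9 (2.42) and Sgk1 (1.49). The thyroid receptors themselves did not pass (Thra -0.18, Thrb 0.17). Without P0 DMSO 1 or without P0 DAPT 1, 2 of the 4 stayed called.

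The insulin-like growth factor binding proteins Igfbp6 (log2 fold change 2.35), Igfbp7 (1.74), Igfbp5 (1.36) and Igfbp3 (1.24) rose, 4 of the 8 genes in their list, against 4.11% of all genes. Igf1 and its receptor Igf1r did not pass (-0.12 and 0.11). Igfbp5 stood at 3361 to 5866 CPM in the 3 P0 libraries, 9865 to 13130 CPM at P5 and 8795 CPM in the library labelled P0 DMSO GFP- 2. With P0 DMSO 1 also left out, none of the 4 stayed called, and without any other single library 1 to 3.

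**Figure D5:**
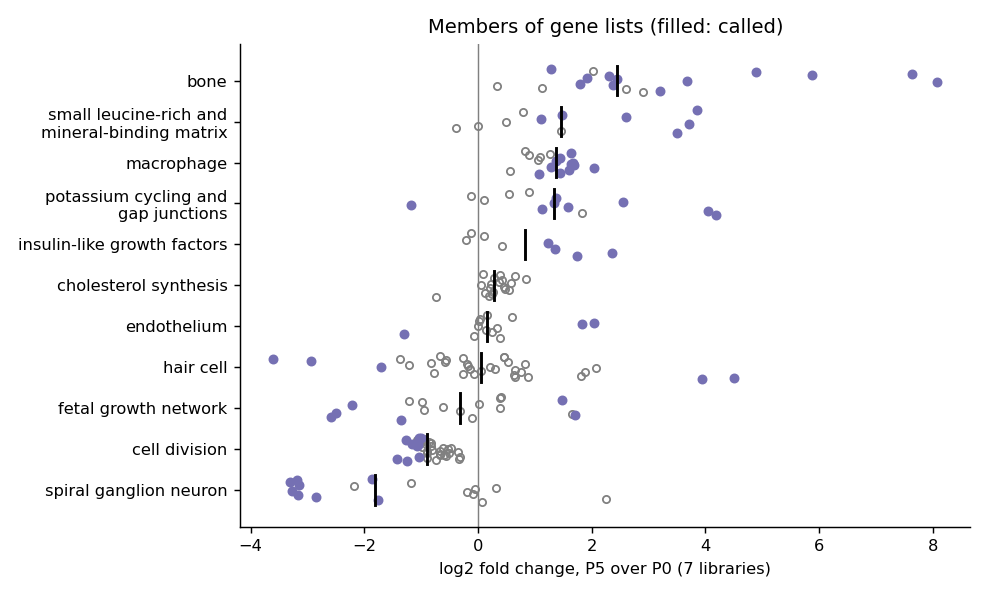
Log2 fold changes of P5 over P0 (7 libraries, without the library labelled P0 DMSO GFP- 2) for tested members of 11 gene lists; filled points passed the limits and bars are medians. Bone (median 2.44) and macrophage (1.38) genes lie to the right, cell division (-0.90) and spiral ganglion neuron (-1.82) genes to the left.

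Genes of the dividing cell were lower at P5. Of 35 tested, 10 passed downward and none upward, all 35 had a negative log2 fold change, and the median was -0.90. Mki67, the proliferation antigen, stood at 237, 233 and 154.9 CPM in P0 DMSO 1, P0 DAPT 1 and P0 DAPT 2, at 142.0, 126.4, 89.8 and 82.1 CPM in the P5 libraries and at 93.9 CPM in the library labelled P0 DMSO GFP- 2. Its log2 fold change was -1.03 (SE 0.16, adjusted p = 0.0048), close to the 2-fold limit. The spindle protein Nusap1 (-1.43), cyclin B1 (Ccnb1, -1.26), the ubiquitin conjugase Ube2c (-1.25), the checkpoint kinase Bub1 (-1.16) and topoisomerase Top2a (-1.01) passed as well. The count was sensitive to single libraries: 0 without P0 DMSO 1, 1 without P0 DAPT 1 or without P5 DAPT 2, 3 or 4 without another P5 library and 18 without P0 DAPT 2. With the replicate block it was 4, and Mki67 (-0.97), Top2a (-0.95) and Ube2c (-1.16, adjusted p = 0.01) no longer passed.

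The letters CCAAT are frequent before genes of the dividing cell, where the factor NF-Y binds them. CCAAT or its reverse complement ATTGG occurred in the 250 bases before the start of 21 of the 28 listed genes with a RefSeq entry (75.0%), 7 of the 9 called ones among them, and for 37.5% of all genes. The letters TTTGAA or TTCAAA, the core of the CHR element of cell cycle genes, occurred for 9 of the 28 (32.1%) and for 18.3% of all. The stretches before Ube2c (chr2:164769679-164769928, plus strand), Top2a (chr11:99024190-99024439, minus strand) and Ccnb1 (chr13:100786487-100786736, minus strand) are given with CCAAT and ATTGG in capitals, since these 3 genes were among the 10 that passed without the block.
Ube2c: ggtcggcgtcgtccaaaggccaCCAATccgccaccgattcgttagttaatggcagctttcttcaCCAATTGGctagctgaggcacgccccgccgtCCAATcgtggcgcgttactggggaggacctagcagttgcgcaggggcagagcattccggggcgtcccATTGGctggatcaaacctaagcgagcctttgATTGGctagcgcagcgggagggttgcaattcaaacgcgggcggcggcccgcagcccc
Top2a: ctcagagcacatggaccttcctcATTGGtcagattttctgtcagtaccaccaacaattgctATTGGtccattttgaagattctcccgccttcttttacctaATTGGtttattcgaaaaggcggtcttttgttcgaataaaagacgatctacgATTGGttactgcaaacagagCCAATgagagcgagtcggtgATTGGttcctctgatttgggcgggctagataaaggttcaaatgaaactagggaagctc
Ccnb1: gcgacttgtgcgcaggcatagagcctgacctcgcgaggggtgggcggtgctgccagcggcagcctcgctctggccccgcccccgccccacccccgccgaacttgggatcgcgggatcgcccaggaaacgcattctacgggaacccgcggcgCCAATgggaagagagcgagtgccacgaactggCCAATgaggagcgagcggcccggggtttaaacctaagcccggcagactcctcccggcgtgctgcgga

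Ube2c and Top2a hold 6 matches each, Ccnb1 2, and Nusap1 and Birc5, also among the 10, none.

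Of 7 genes of cyclin-dependent kinase inhibitors, which hold cells out of division, 2 rose, against 4.11% of all genes. They were Cdkn2b (log2 fold change 2.53, SE 0.26, adjusted p = 0.0012) and Cdkn1a (1.11). Cdkn1b, the inhibitor that keeps supporting cells and hair cells from dividing, stood between 90.2 and 115.2 CPM in all 8 libraries and did not pass (0.06).

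Fetal growth genes split: of 17 tested, 2 rose and 4 fell, against 4.11% and 2.46% of all genes. Igf2bp1, an RNA-binding protein of fetal tissue (ENSMUSG00000013415; chromosome 11, 95818477 to 95867254, minus strand), stood at 17.1, 17.6 and 18.3 CPM in P0 DMSO 1, P0 DAPT 1 and P0 DAPT 2, between 2.69 and 3.46 CPM in the 4 P5 libraries and at 3.11 CPM in the library labelled P0 DMSO GFP- 2. Without that library the log2 fold change was -2.59 (SE 0.14, adjusted p = 0.00017), and with it -2.19. Lin28b (-2.49), the imprinted gene Mest (-2.21) and Igf2bp3 (-1.35) also fell. The 2 members that rose were the chromatin protein Hmga2 (1.70) and the imprinted gene Dlk1 (1.47). Igf2 and H19, an imprinted pair, stood at no less than 1457 CPM in any library and did not pass (0.41 and 0.39). Without P0 DMSO 1 as well, 2 of the 6 stayed called.

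Neuronal genes were mostly lower at P5. Of 16 spiral ganglion neuron genes tested, 8 passed downward and none upward (median -1.82), and 3 had a positive log2 fold change. Nefm, a neurofilament subunit, stood at 124.1, 101.2 and 76.9 CPM in P0 DMSO 1, P0 DAPT 1 and P0 DAPT 2, at 10.4, 7.96, 17.1 and 5.32 CPM in the P5 libraries and at 2.13 CPM in the library labelled P0 DMSO GFP- 2, below every P5 library. Its log2 fold change was -3.30 (SE 0.38, adjusted p = 0.0017). Nefl (-3.18), Prph (-3.27), Elavl3 (-3.17) and Tubb3 (-1.87) fell in the same libraries. These are genes of neuron bodies and axons that lie in the modiolus, from which the duct was parted differently at the 2 ages. How much of the modiolus remained was not tested, and age and dissection cannot be told apart. With P0 DMSO 1 left out, or P0 DAPT 1, 1 member stayed called, and without either P5 DMSO library 3.

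The largest decreases among genes with at least 10 CPM and no overlap included Crabp1, Chodl, Dcx, Ina, Islr2, Rph3a, Kcnt1, Cacna1b and Spink5. Crabp1, which binds retinoic acid in the cytoplasm (chromosome 9, 54612555 to 54620917, plus strand), stood at 48.7, 37.2 and 72.5 CPM in P0 DMSO 1, P0 DAPT 1 and P0 DAPT 2, between 0.606 and 1.27 CPM at P5 and at 0.0890 CPM in the library labelled P0 DMSO GFP- 2. Its log2 fold change was -6.06 without that library (SE 0.34, adjusted p = 0.00018) and -5.50 with it. Dcx, doublecortin of migrating neurons (-4.66), Ina, a neurofilament-like internexin (-3.79), and the potassium and calcium channel genes Kcnt1 (-3.5) and Cacna1b (-3.46) are neuronal.

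In these genes the omitted library often lay beyond the P5 libraries. Dcx stood at 0.386 CPM in it and at 0.773 to 2.17 CPM at P5, and Islr2 at 0.979 CPM against 1.98 to 3.31 CPM. Over all 455 genes lower at P5, 183 were lower in it than in any P5 library.

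The 10 largest increases by the same rule were Mmp3, Mmp13, 5430419D17Rik, Scin, Slco1a4, Vit, Chi3l1, Ibsp, Clca5 and Clca2. Clca5 and Clca2 belong to a family of chloride channel regulators. Clca2 stood at 1.26, 0.773 and 0.698 CPM in P0 DMSO 1, P0 DAPT 1 and P0 DAPT 2, at 50.3, 64.4, 41.8 and 44.2 CPM in the P5 libraries and at 56.0 CPM in the library labelled P0 DMSO GFP- 2 (without it, log2 fold change 5.71, SE 0.16, adjusted p = 3.7e-05). Vit, vitrin, a matrix protein named for the vitreous, rose by a log2 fold change of 5.90 (SE 0.46) and the actin-severing Scin by 6.13 (SE 0.57). Mmp3 and Mmp13, matrix-cutting proteases, held at most 0.117 and 0.0663 CPM in the 3 P0 libraries, and at P5 they split by replicate: 47.9 and 48.2 CPM of Mmp3 in replicates 1 but 8.67 and 8.99 CPM in replicates 2.

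Macrophage genes were higher at P5, 11 of 17 with none lower (median 1.38). Csf1r, the receptor on which macrophages depend, stood at 6.64, 4.31 and 4.53 CPM in P0 DMSO 1, P0 DAPT 1 and P0 DAPT 2, at 20.5, 20.0, 13.7 and 14.2 CPM in the P5 libraries and at 33.3 CPM in the library labelled P0 DMSO GFP- 2, the highest of all. Its log2 fold change was 1.64 without that library (SE 0.11, adjusted p = 0.00033) and 0.83 with it. The complement genes C1qa (1.67) and C1qc (1.69) and the endotoxin coreceptor Cd14 (2.04) rose as well, while Ptprc, shared by all white cells, overlapped (0.82). The list summed to 74.4 to 148.8 CPM in the 3 P0 libraries and 219 to 428 CPM at P5. Without P0 DMSO 1 as well, 1 member stayed called, and without P0 DAPT 1, 4.

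Of 17 genes of interferon response and antigen presentation, 6 rose. H2-Aa (log2 fold change 4.34), Cd74 (3.75) and H2-Ab1 (3.70) form and chaperone class II molecules, and Cd74 went from between 1.28 and 1.72 CPM in the 3 P0 libraries to between 13.3 and 25.1 CPM at P5. The proteasome subunit Psmb8 (1.92) and the class I genes H2-K1 (1.48) and H2-D1 (1.46) rose too, whereas the interferon-induced Ifit1 and Ifit3 overlapped (0.77 and 1.37). Class I genes are close copies of each other, and their reads may be split uncertainly. With P0 DMSO 1 also left out, 1 of the 6 stayed called.

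The endothelial, glial and mesenchymal lists each held 2 or 3 calls, against 6.57% of all genes. Of 13 endothelial genes, Kdr (log2 fold change 2.04) and Flt1 (1.83), receptors of the growth factor VEGF, rose and Ramp2 fell by 1.30, while Pecam1 and Cdh5, which mark all endothelium, did not pass (0.16 and 0.60). Of 17 Schwann and satellite glia genes, Fabp7 (-1.78) and Erbb3 (-1.10) fell, and Pmp22, a protein of peripheral myelin, did not pass (0.51). With the replicate block Fabp7 (-1.72, adjusted p = 0.01) no longer passed, and without a further library 1 glial gene stayed called when it was P0 DAPT 2 and 0 in the other cases. Of 13 genes of otic mesenchyme and fibrocytes, Car3, a carbonic anhydrase (2.93), and Prrx2 (1.39) rose, while the mesenchymal regulators Pou3f4 and Tbx18 did not pass (0.47 and -0.04); 4 members of that list passed with the block.

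Erythroid genes summed to 58.6 to 106.2 CPM in the 3 P0 libraries and 23.4 to 56.4 CPM at P5, with 0 of 9 called (Hba-a1 -1.12, Hba-a2 -1.90, which are near-identical copies). Granulocyte (3 tested), lymphocyte (5), pericyte and smooth muscle (9) and cochlear roof (4) lists also had 0 members past the limits by edgeR; an unadjusted p under 0.05 was reached by 6 erythroid, 2 granulocyte, 0 lymphocyte, 5 pericyte and 1 roof member, and DESeq2 called 3 erythroid and 2 granulocyte members and none of the others. With the replicate block 3 erythroid members (Hba-a1 at -1.04, adjusted p = 0.0069) and 2 granulocyte members (Camp at 1.94, adjusted p = 0.0022) passed as well, and 0 of the other 3 lists. Pdgfrb of pericytes had a log2 fold change of 0.98, just under the limit, and Oc90 of the cochlear roof one of -1.52 (adjusted p = 0.035). Oc90 nonetheless stood at 195.6 to 473 CPM in the 3 P0 libraries and at 80.6 to 199.8 CPM at P5.

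Of 33 hair cell genes, 2 rose, against 4.11% of all genes, and 3 fell, against 2.46% (median 0.05). Slc26a5 and Ocm, oncomodulin of outer hair cells, were the former; Ocm stood at 0.28, 0.155 and 0.802 CPM in the 3 P0 libraries and 2.86 to 9.70 CPM at P5 (log2 fold change 3.94). Atoh1 (-3.60) and Insm1 (-2.93), transcription factors of newly formed hair cells, fell from levels that were already under 1 CPM, and Espn, the actin bundler of stereocilia, fell by 1.71. Myo7a did not pass (-0.66), nor did Myo6 (0.45, adjusted p = 0.016). Without P0 DMSO 1 or without P0 DAPT 1, 0 of the 5 stayed called, and without P5 DAPT 2, 1.

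Among 15 supporting cell genes 2 rose, against 4.11% of all genes: Slitrk6 (log2 fold change 1.89) and Lfng (1.09). Sox2 and Prox1 did not pass (0.24 and -1.05), though Prox1 passed with the replicate block, at -1.01 and an adjusted p of 0.0095. The Notch list, of 17 genes, held 2 that rose, against 4.11% of all genes: Hey1 (1.59) and Lfng. Hey1 stood at 40.9 CPM in P0 DMSO 1, 13.98 and 10.5 CPM in P0 DAPT 1 and 2, 82.7 and 88.1 CPM in P5 DMSO and 39.8 and 56.4 CPM in P5 DAPT. Under DAPT both P5 libraries were thus higher, while in DMSO the comparison rests on P0 DMSO 1 alone. The receptors Notch1 and Notch2 did not pass.

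Of 13 circadian genes, Npas2 (2.21) and Nr1d1 (1.68) rose, against 4.11% of all genes, and Arntl and Clock did not pass (0.24 and 0.57). Cyr61 (2.04) was the single one of 13 immediate early genes that passed, and it passed in 2 of the 7 further omissions; 4 immediate early genes passed with the replicate block. With P0 DMSO 1 also left out, 0 members passed in the collagen, kinase inhibitor, mesenchyme, Notch and circadian lists and 1 in the endothelial and supporting cell lists. The cholesterol synthesis (19 tested), hypoxia (12) and sex-linked (5) lists had 0 members past the limits by edgeR; unadjusted p-values under 0.05 numbered 7, 3 and 0, and DESeq2 called 0, 1 and 0. Sqle of cholesterol synthesis had a log2 fold change of 0.39, Ldha and Pgk1 of the hypoxia list 0.48 and -0.10, and Xist and Ddx3y -0.61 and 0.07.

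The age difference was not shown to depend on treatment. The edgeR interaction of age and treatment called 0 of 18018 genes (0.0%) with all 8 libraries, where 231 had an unadjusted p under 0.05 and DESeq2 called 0, and 0 of 18519 genes without the library labelled P0 DMSO GFP- 2 (186 with an unadjusted p under 0.05). With a single P0 DMSO library left, this second test had little to draw on.

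The age difference of GFP- cells was then set against that of GFP+ cells, in the DAPT libraries, which do not include the library labelled P0 DMSO GFP- 2. Of 21291 genes 281 (1.32%) differed: the change with age was more positive in GFP+ cells for 103 and more negative for 178. That balance turned with the setting: it was 167 to 51 with all 16 libraries, 693 to 586 by DESeq2, 1109 to 666 with no filter on low counts, 528 to 502 at an adjusted p limit of 0.05 and 289 to 248 without P5 DAPT GFP+ 1. All these libraries were treated with DAPT, so a change with age and a response to DAPT that differs between the ages cannot be told apart. The fractions also differ in preparation, judged by mitochondrial ribosomal RNA. It took 20.2 to 25.3% of gene counts in the 4 GFP+ libraries and 0.0542 to 0.0876% in the 4 GFP- libraries. The library numbers of the fractions, which are not the replicate numbers, fall in separate consecutive stretches. The sample labels name no sequencing run or batch. Fraction and any batch that follows the library numbers cannot be told apart. Leaving out 1 P0 library left 31 or 77 (GFP+ 1 or 2) and 46 or 37 (GFP- 1 or 2), and leaving out 1 P5 library left 537 or 273 (GFP+) and 125 or 112 (GFP-).

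Among the genes given above, Tectb had a larger change with age in GFP- than in GFP+ cells. It stood at 303.9 and 328.1 CPM in the P0 and at 3120 and 5261 CPM in the P5 DAPT GFP- libraries, against 6100 and 4735 CPM and then 11040 and 6740 CPM in GFP+ cells (age changes of 3.73 and 0.71 on the log2 scale, difference -3.01, SE 0.43, adjusted p = 0.0082). Erbb3 had age changes of opposite sign in GFP- and GFP+ cells (-1.44 and 1.01, adjusted p of the difference 0.0046). Bub1 had a change of -1.25 in GFP- cells, and in GFP+ cells, where it stood at 0.387 and 0.479 CPM at P0 and 2.02 and 3.23 CPM at P5, the change was 2.60 (adjusted p of the difference 0.0065). Values of DMSO GFP+ libraries follow per 1000000 gene counts without further scaling. Tectb stood at 6440 and 5988 at P0 and at 5441 and 5861 at P5, slightly lower. Erbb3 stood at 112.9 and 82.34, then 114.6 and 129.3, slightly higher. Bub1 stood at 1.481 and 2.873, then 2.104 and 1.235, and overlapped between the ages. None of these DMSO values was tested.

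Rbm24, an RNA-binding protein found in hair cells and muscle, showed the most negative difference among called genes with at least 10 CPM in a group. It went from 1.01 and 0.707 CPM to 19.2 and 21.4 CPM in DAPT GFP- libraries and from 193.2 and 186.1 CPM to 29.1 and 31.3 CPM in DAPT GFP+ libraries (difference -7.20, SE 0.27, adjusted p = 4.4e-05). Pax2, Slc16a5, Nfkbib and Gng8 followed it (differences of -6.35 to -5.72), with GFP- changes between -0.73 and 0.68, and Mst1r, Fam111a, Lrrc7, Ccdc69 and 5430435G22Rik led the other direction (4.62 to 5.80). Of the 33 hair cell genes, 10 differed between the fractions, against 1.32% of all genes, Myo6 among them. Myo6 stood at 252.0 and 293.7 CPM at P0 and 351.2 and 383.5 CPM at P5 in GFP- cells. In GFP+ cells it went from 1742 and 1559 CPM to 431.6 and 459.9 CPM (adjusted p of the difference 0.0013). The GFP+ libraries treated with DMSO give a further view. Per 1000000 gene counts without further scaling, Myo6 stood at 296.2 and 283.2 in P0 DMSO GFP+, 280.0 and 275.2 in P5 DMSO GFP+, 1673 and 1493 in P0 DAPT GFP+ and 389.3 and 426.7 in P5 DAPT GFP+. Rbm24 stood at 29.4 and 10.82, 50.24 and 67.9, 185.6 and 178.2, and 26.24 and 29.03 in the same order. Both genes were thus highest under DAPT at P0, and in DMSO the P5 values lay just below those of P0 for Myo6 and above them for Rbm24. These values carry no test. The P0 DMSO GFP+ libraries held counts for 30639 and 31345 genes, against 25651 to 27156 in the other GFP+ libraries. Reads with several alignments made up 8.56 and 7.63% of their records, against 3.95 to 4.45% in the others. Age and these differences between libraries cannot be told apart in DMSO GFP+ cells.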

How the data were processed

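RNA was sequenced as paired ends from sorted cells of cultured cochleas. The authors aligned reads to mm9 (Ensembl NCBIM37) with TopHat, of which the submitters' processing notes give version 1.4.0 beside HTSeq and DESeq 1.9.2, and deposited raw counts per gene, 1 file per library. Whether counting used strand is not given in the sources used here, so reads of overlapping or antisense genes cannot be told apart. The 5 closing lines of each file, outside genes, entered no total or test, and reads outside genes were 6.64 to 13.73% of records in GFP- libraries.

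Of 36536 gene identifiers 34391 had a symbol. Positions are those of GENCODE M1 on NCBIM37; promoters are from RefSeq on GRCm38.p6. Counts were filtered with filterByExpr (minimum count 10, minimum total 15), scaled by TMM and tested with the edgeR quasi-likelihood test (edgeR 4.0.16, R 4.3.3), with treatment as an additive term and Benjamini-Hochberg adjustment. Every adjusted p in the text is from this test. A gene was called where it changed more than 2-fold and its adjusted p was below 0.01, the study's limits for cultured samples. Standard errors are the size of the log2 fold change over the square root of F. Alternatives used DESeq2 1.42.0 and limma 3.58.1 among others. The scripts were tested on simulated data. Log2 fold changes and calls of single genes and lists are from the 7 libraries without P0 DMSO GFP- 2 unless stated, and CPM are scaled over the 8 GFP- libraries (over the 8 DAPT libraries where GFP- is set against GFP+).

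Named genes were Mgp, Hhatl, the 10 largest called changes in each direction with at least 10 CPM and no overlap, the first 2 tested and up to 4 called members of each of 32 lists, the 5 largest differences between fractions in each direction, and the 15 genes in which P0 DMSO GFP- 2 differed most from other P0 libraries. Some genes that this rule names are not reported here, and further list members given in the text were chosen after their values were seen. Of 485 list entries 482 matched. The members and lists were chosen with earlier results of these data known. The replicate numbers in the titles are shared by all groups; deviations of same-numbered libraries from their group means correlated at 0.107 to 0.728 over the 6 pairs of GFP- groups, so the numbers were taken to pair libraries, and values with the number as a block are given where they change a call or move a count by over 1.5 times. Nothing in the labels says that replicates came from separate litters or days, so p-values measure the spread between these libraries, which may be technical.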

Additional observations from a re-analysis of the deposited data

Results flagged for a closer look

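In 14 of 46 groups of 4 libraries checked, 1 library lay apart from the other 3 by more than Dixon's 95% limit for 4 values (the gap to its neighbour over the whole range). The checks covered the first principal component and the 22 genes that lead the report, on log2(CPM + 1), at each age. Chance flags about 1 in 20 groups, but that rate is no measure here: 20 of these genes were taken as the largest changes without overlap once P0 DMSO GFP- 2 was left out, so that its distance from the other P0 libraries was largely set by the choice, and the values are a description. At P0 the library apart was in each case the one labelled P0 DMSO GFP- 2. The ratio was 0.85 for the first principal component, 0.98 for Mmp3, 0.96 for Mmp13 and 5430419D17Rik, 0.95 for Vit, 0.94 for Scin, Chi3l1 and Clca5, 0.92 for Slco1a4 and Clca2, and 0.84 for Crabp1 and Dcx. At P5 it was 0.92 for Clca5, where P5 DAPT 2 was lowest, and 0.84 for Crabp1, where P5 DMSO 2 was highest.

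The age change differed between GFP+ and GFP- cells under DAPT, by the interaction term, in 281 genes. Of the genes that lead the report these included 5430419D17Rik, whose change was smaller in GFP+ cells (difference -4.97 on the log2 scale, adjusted p = 0.0086), and Spink5, which fell in GFP- cells and changed by 0.31 in GFP+ cells (difference 3.76, adjusted p = 0.0082).

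The 10 genes in which the library labelled P0 DMSO GFP- 2 exceeded the mean of the other P0 libraries most were Scin, Ibsp, Clca5, Chi3l1, Clca2, Tmprss9, Ptgs2, Smpd3, Rarres1 and Gm525, and the 5 in which it lay furthest below were Crabp1, Dcx, Rph3a, Nefm and Nefl. Tmprss9 stood at 197.8 CPM in it, at 0.773 to 10.1 CPM in the other P0 libraries and at 94.7 to 209.8 CPM at P5. The library exceeded all 7 others by over 2-fold in 6 genes, beside 14 for P0 DAPT 2, 10 for P5 DAPT 2 and 0 to 2 for each of the other 5 libraries.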

How the results depend on the processing

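The count of age differences depended on 1 library. With all 8 libraries it was 0 by edgeR, 148 by DESeq2 and 1649 by limma voom with quality weights. By edgeR it was 62 in the DAPT libraries alone and 1 with all 16 libraries in the fit. In the DMSO libraries alone, which include the library labelled P0 DMSO GFP- 2, it was 0 of 17423 genes. Leaving out 1 library at a time gave 0 to 1217, above 0 in the case of P0 DMSO GFP- 2 alone. Without that library 1217 became 1912 by DESeq2, 2098 at an adjusted p limit of 0.05 and 2050 by limma voom. It became 62 in the DAPT libraries alone (1233 by DESeq2), 0 with all 8 libraries, and 148 to 1066 with a further library left out. Alternatives named for the 7 libraries beyond size factors, filter, DESeq2, block and limit were chosen after seeing the data. With DESeq2's size factors it was 1238 and with no filter on low counts 1749. The interaction of age and treatment stayed at 0, with 1 gene when P0 DMSO 1 was left out (0 to 1 over the libraries). The age by fraction count of 281 became 1775 with no filter, 1279 by DESeq2 and 1030 at the limit of 0.05, and 31 to 537 with a library left out. The share with a more positive change in GFP+ cells was 36.7%, but 62.5% with no filter, 54.2% by DESeq2 and 76.6% with all 16 libraries. Of the 93 named genes called with 7 libraries, 22 stayed called with each further library left out in turn, Mgp, Hhatl, Acan, Dio2, Tectb, Crabp1, Igf2bp1, Csf1r and Kdr among them. Of the named genes, 69 lost their call when P0 DMSO 1 was left out as well, and 51 when P0 DAPT 1 was.

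With the replicate number as a block, the counts went from 0 to 0 with all 8 libraries, from 1217 to 1577 without P0 DMSO GFP- 2 (1187 genes in both), from 0 to 0 for age and treatment, and from 281 to 410 for age and fraction. Among named genes of the 7-library comparison, the block ended the calls of Mki67, Top2a, Ube2c and Fabp7 and added Prox1, Tecta, Camp, Hba-a1 and Sp7, and it changed no other call. With the block, the log2 fold change of Pecam1 became -0.02 and that of Tbx18 0.002.

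Changes of sign touched 12 named genes, 0 of them called. By limma voom, Pecam1 was at -0.15, Tbx18 at 0.02 and Notch1 at 0.06. Notch1 was at 0.01 with DESeq2's size factors, with no filter and by DESeq2. In the DAPT libraries alone Cd79b was at 0.13 (0.14 by DESeq2), Fosb at -0.005 (-0.0042), Notch2 at -0.22 (-0.22) and Ddx3y at -0.19 (-0.19). With all 8 libraries Cdkn1b was at -0.03, Fosb at -0.68 and Notch2 at -0.00089. With a further library left out, the values ran from -0.74 to 0.13 for Cd79b, -0.06 to 0.32 for Pecam1, -0.14 to 0.05 for Tbx18, -0.32 to 0.57 for Myh8, -0.01 to 0.11 for Cdkn1b, -0.01 to 0.3 for Thrb, -0.00084 to 3.62 for Fosb, -0.34 to 0.18 for Pgk1, -0.14 to 0.14 for Notch1, -0.22 to 0.35 for Notch2, -0.32 to 0.08 for Igf1 and -0.19 to 0.25 for Ddx3y. The cause of these differences was not tested. The biological coefficient of variation was 0.288 with 8 and 0.2073 with 7 libraries.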

Other observations

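Immediate early genes, which cells switch on within minutes of a stimulus, differed between the 2 replicates of each group. Of 13 such genes, 10 (Fos, Fosb, Jun, Junb, Egr1, Ier2, Ier3, Dusp1, Zfp36 and Nr4a1; 76.9%) were higher in replicate 2 than in replicate 1 in all 4 GFP- groups, against 2582 of 18018 genes (14.3%). Fos stood at 209.0 and 2007 CPM in replicates 1 and 2 of P0 DMSO, at 91.8 and 906.2 CPM in P0 DAPT, at 445.3 and 1203 CPM in P5 DMSO and at 337.4 and 1451 CPM in P5 DAPT. The pattern was noticed in these data and has no separate test.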
